A study of Mus musculus with 8 samples.

Results

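The mRNAs of 10 genes of the microRNA (miRNA) pathway were followed in mouse embryonic stem (mES) cells with and without Trim71. They are Drosha, Dgcr8, Xpo5, Dicer1, Tarbp2, Ago1, Ago2, Ago3, Ago4 and Tnrc6a. Members were taken by gene symbol, with no threshold on their values but with earlier results of these data known. All 10 were found among the 13558 transcripts of the table. Trim71 is an RNA-binding protein with a ubiquitin ligase domain, and it had been proposed to act as such a ligase on the Argonaute 2 protein. For this reason the mRNAs of this machinery were compared between the genotypes, although mRNA levels do not measure the turnover of a protein. The study itself reported neither Ago2 protein nor Ago2 mRNA as altered by the deletion.

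The table holds 8 poly(A) RNA libraries, 4 of Trim71-/- cells (KO) and 4 of Trim71 fl/fl cells (labelled WT). All were male C57BL/6 mES cells grown in medium with serum and the cytokine LIF, and cells carrying the stem cell antigen SSEA-1 were enriched on magnetic columns before lysis. Both genotypes came from cells with a floxed Trim71 exon and with a Cre recombinase, fused to an oestrogen receptor, in the Rosa26 locus, so the WT cells were not genetically wild type. To delete the exon, KO cells had received 4-hydroxytamoxifen (4-OHT), the ligand of that receptor, for 2 days, at 500 nM per the labels and at another dose per the study's methods, and were then kept for at least 7 days. The methods give the solvent DMSO for the controls. The cells came from 2 clones. Clone E3 gave 3 KO and 2 WT libraries and clone 1 gave 1 KO and 2 WT libraries. The labels also give each library a day, without saying what it counts, and days 3, 4 and 5 each have 1 library of both genotypes. No label says that the libraries came from separate derivations, so the p-values below measure only the spread between these libraries.

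In the miRNA pathway, the nuclear Microprocessor, made of the RNase III Drosha and its RNA-binding partner Dgcr8, cuts hairpins out of primary transcripts. Exportin 5, encoded by Xpo5, carries the hairpin precursor to the cytoplasm. There Dicer, encoded by Dicer1, helped by the double-stranded RNA-binding protein TRBP (Tarbp2), cuts it to a duplex, and 1 strand is held by an Argonaute (Ago1 to Ago4) that recruits a GW182 protein (Tnrc6a, Tnrc6b or Tnrc6c) to silence mRNAs. Mouse ES cells without Dgcr8 or Dicer1 survive but differentiate poorly, and the seed of a miRNA, its bases 2 to 8, sets most of its targets.

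For orientation, 3 miRNAs that are textbook regulators in this setting are shown with the seed in capitals, as RefSeq gives them on GRCm38.p6. The let-7 family marks differentiated cells and targets Trim71 itself, miR-294 belongs to the ES cell-specific miR-290 cluster, and miR-17 belongs to a cluster that is abundant in proliferating cells.
mmu-let-7a-5p: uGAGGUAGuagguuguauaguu
mmu-miR-294-3p: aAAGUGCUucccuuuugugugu
mmu-miR-17-5p: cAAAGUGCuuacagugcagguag
These were printed as sequence only, since small RNAs were not measured in these libraries.

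The target gene checked the labels. Trim71 (chromosome 9, 114507133 to 114564369, minus strand, GRCm38) was at 500, 793, 733 and 247 normalized counts in the KO libraries, ordered by replicate, and at 2782, 2736, 1988 and 2584 in the WT libraries. No KO value reached a WT value, the mean being 568 ± 249 (SD, n = 4) against 2522 ± 367 (SD, n = 4). Its log2 fold change was -2.39 ± 0.35 (SE), with an unadjusted limma p of 0.000201 and an adjusted p of 0.294. Reads of the undeleted exons still count toward the gene, so the rest level is not a level of intact mRNA. The rest level of single KO libraries also rests on a clone correction by the authors, which shifted Trim71 by 277 in clone E3 and by -277 in clone 1. Before it the KO libraries read 223, 516, 456 and 524 and the WT libraries 3060, 2459, 1711 and 2861, again without overlap.

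Depth varied between the libraries, and markers of stem cells prevailed in summed value. Reads recovered from the values ranged from 7061825 in WT replicate 2 to 26229534 in WT replicate 3. The 10 stem cell markers summed to 70560 to 91600 normalized counts in KO and to 63990 to 81410 in WT. Their levels differed widely, Pou5f1 (Oct4) lying between 12370 and 20440 and Fut4 between 9.08 and 27.4. Over the 6 endoderm markers present, the summed value ran from 259 to 570 in KO and from 67.9 to 422 in WT, with 5 of 6 above 0 in log2 fold change and 0 of 6 at an unadjusted p under 0.05. Gata4 lay between 99.3 and 244 in KO and between 1.72 and 170 in WT, and Gata6 and Sox17 reached the lowest deposited value of 1 in at least 1 WT library. The 4 fibroblast markers present, relevant because feeder cells can be carried along, summed to 130 to 248 in KO and 94.7 to 211 in WT, with Col1a1 between 10.3 and 71.1. The 4 mesoderm markers present summed to 177 to 230 in KO and 120 to 199 in WT, where T did not exceed 17.4. The 6 neural markers present summed to 808 to 1059 in KO and 968 to 1629 in WT. Among these Pax6 did not exceed 51.4, and Tubb3 lay between 351 and 975. The mesoderm gene Eomes was higher in KO at an unadjusted limma p of 0.0384 and the neural progenitor gene Nes lower at 0.0161. In bulk RNA, fewer cells of a type and less RNA per cell cannot be told apart, and the part of such cells in the results below was not tested.

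Across the 10 members, loss of Trim71 came with small differences. In the fit of all transcripts on log2(normalized count + 1), with genotype and clone as terms, 0 of 10 members passed an adjusted p of 0.05 (limma, Benjamini-Hochberg over 13558 transcripts). The background is the same, as 0.0% of all transcripts passed it, with a smallest adjusted p of 0.275. At an unadjusted p under 0.05, 1 of 10 members was called, Dicer1, which was lower in KO, while 9.09% of all transcripts were called and 4.46% were called lower. With the study's own kind of criterion, an unadjusted p under 0.05 together with a fold change of at least 1.5, 0 of 10 members were called against 4.25% of all transcripts. Fold changes on this scale understate the change of low transcripts such as Ago4.

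Of the 10 members, 9 had a log2 fold change below 0, only Tarbp2 being above it, while 6784 of the 13558 transcripts were below 0. The median over the members was -0.21 and that over all transcripts was -0.0004. The members are not independent of each other. With the trend on length and GC content removed 8 of 10 were below 0, Ago2 and Xpo5 being at -0.0. In the same-day fit described below 8 of 10 were below 0, and with that trend removed within it only 4 of 10.

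**Figure D1:**
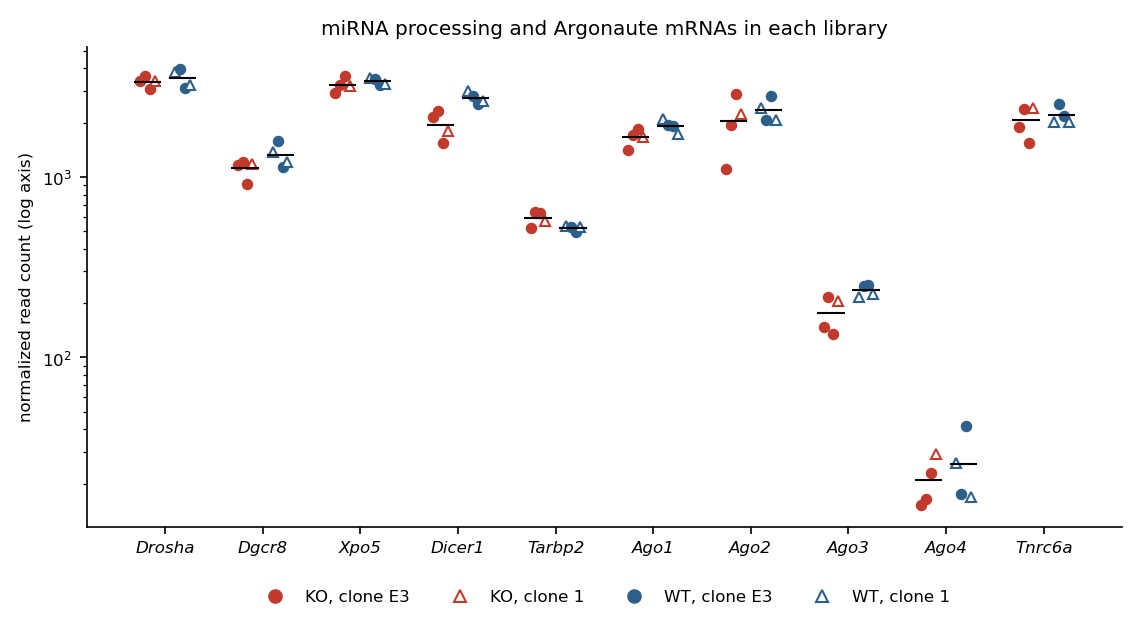
Normalized read count (log axis) of the 10 members in the 4 KO (red) and 4 WT (blue) libraries. Filled circles are clone E3, open triangles clone 1, and black lines group means. All KO points of Dicer1 (at most 2317) lie under all WT points (at least 2531), the KO points of Ago3 end just under its WT points, and the other 8 members overlap.

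The nuclear step did not differ detectably between the genotypes in the fit of all 8 libraries. Drosha (chromosome 15, 12824815 to 12935291, plus strand) read 3424, 3638, 3088 and 3388 in the KO libraries, by replicate, and 3838, 3980, 3120 and 3255 in the WT libraries. The groups overlapped in part, WT replicates 1 and 2 lying above every KO library and KO replicate 3 under every WT library. The log2 fold change was -0.06 ± 0.13 (SE), with a 95% confidence interval of 0.771- to 1.19-fold, which leaves out a change of 1.5-fold in either direction. Its partner Dgcr8 (chromosome 16, 18253948 to 18289246, minus strand) read 1169, 1211, 912 and 1177 in KO and 1385, 1583, 1135 and 1213 in WT. KO replicate 3 alone lay under the whole WT range. The log2 fold change of -0.24 ± 0.16 (SE) had a limma p of 0.183 and an interval of 0.647- to 1.11-fold, which still holds a fall of 1.5-fold. Without WT replicate 2 the value was -0.10, with a limma p of 0.574. On each of the days with both genotypes the KO library was the lower one for Dgcr8, by -0.39, -0.32 and -0.04 on the log2 scale. Fitted as reads with voom and with the day as a replicate block, Dgcr8 reached an unadjusted p of 0.0438 (adjusted 0.201), where 12.4% of all transcripts were called lower.

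Of the 12 Microprocessor subunits and nuclear co-factors, 0 were called in either direction at an unadjusted p under 0.05, and their median log2 fold change was -0.08. The helicase Ddx17, which assists Drosha on some hairpins, had the smallest p of those below 0 (log2 fold change -0.19, limma adjusted p = 0.658), and the hairpin-binding protein gene Khsrp the smallest of those above 0 (0.07, limma adjusted p = 0.902).

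Export did not differ detectably either. Xpo5 (chromosome 17, 46202782 to 46243598, plus strand) read 2913, 3235, 3627 and 3177 in KO and 3561, 3481, 3252 and 3294 in WT, so that the KO libraries held both the lowest and the highest value. Its log2 fold change was -0.07 ± 0.12 (SE) with an interval of 0.787- to 1.15-fold. The other export genes on the list, Ran, Xpo1 and Nup153, were not called, Nup153, a nuclear pore protein, having the smallest p (log2 fold change -0.30, limma adjusted p = 0.641).

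Dicer1 was the only member called in the fit of all 8 libraries, and it was lower in KO. The gene lies on chromosome 12 (104687742 to 104751952, minus strand, 27 exons) and encodes the RNase III that releases the duplex. It read 2166, 2317, 1535 and 1800 in KO and 2992, 2796, 2531 and 2644 in WT, in the order of the replicates. The groups did not overlap, the highest KO library (replicate 2) lying under the lowest WT library (replicate 3). The mean was 1955 ± 354 in KO and 2741 ± 200 in WT (SD, n = 4 each), a difference of 28.7%. On the log2 scale it was -0.51 ± 0.17 (SE), with a 95% interval of 0.538- to 0.922-fold, an unadjusted limma p of 0.0178 and an adjusted p of 0.469. The exact two-sided permutation test gave 0.0286, the smallest value that 70 assignments of the libraries allow. Non-overlap in either direction was met by 10.1% of all transcripts, and by p the gene ranked 506 of 13558.

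Dicer1 was lower in the KO libraries of both clones, without overlap within either, and on each shared day. Same-day differences were -0.27 on day 3, -0.72 on day 4 and -0.55 on day 5 on the log2 scale. Within clone E3 the log2 fold change was -0.43, with a limma p of 0.132, and in clone 1, with a single KO library and hence no test, the difference was -0.64. The genotype by clone interaction had an unadjusted p of 0.583. With the day as a replicate block over the 6 same-day libraries the value was -0.52, with a limma p of 0.0148 (adjusted 0.22), in a fit that called 9.26% of all transcripts lower. As recovered reads in voom it was -0.51, with a p of 0.0103 (adjusted 0.381), where 4.77% were called lower.

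The Dicer1 call was lost in 3 of the 24 other fits. Its transcript is long, 9.85 kb against a median of 3.01 kb over the table, with 47.3% GC. When each library's trend on length and GC content was removed, the log2 fold change was -0.29 ± 0.15 (SE) with a limma p of 0.0895, where 4.8% of all transcripts were called lower. Together with the day block it was -0.32 with a p of 0.035, where 7.99% were. Leaving out 1 library kept the direction, between -0.58 and -0.41, but the p rose to 0.0975 without KO replicate 4, and 2 of the 8 fits with 1 library left out had a p above 0.05.

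Tarbp2 (chromosome 15, 102518192 to 102523676, plus strand), the partner of Dicer, was the only member above 0. It read 519, 642, 636 and 570 in KO and 538, 529, 498 and 532 in WT. Of the KO libraries, 3 lay above every WT library and KO replicate 1 lay within the WT range. Its log2 fold change was 0.17 ± 0.12 (SE), with an interval of 0.928- to 1.37-fold and a limma p of 0.191. The KO library was higher on each shared day, by 0.28, 0.35 and 0.10. Voom with the day block gave an unadjusted p of 0.039 (adjusted 0.194), where 23.7% of all transcripts were called in either direction. With the length and GC trend removed the value was 0.03, this being a short transcript (1.52 kb, 57.5% GC). Across the 8 libraries Tarbp2 and Dicer1 had a Pearson r of -0.60 (n = 8, given as a description). These libraries are linked by clone and day and differ in depth. This r takes in the difference between the genotypes, and within WT both genes were highest in replicate 1 and lowest in replicate 3. In the list of 5 Dicer complex genes only Dicer1 was called.

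**Figure D2:**
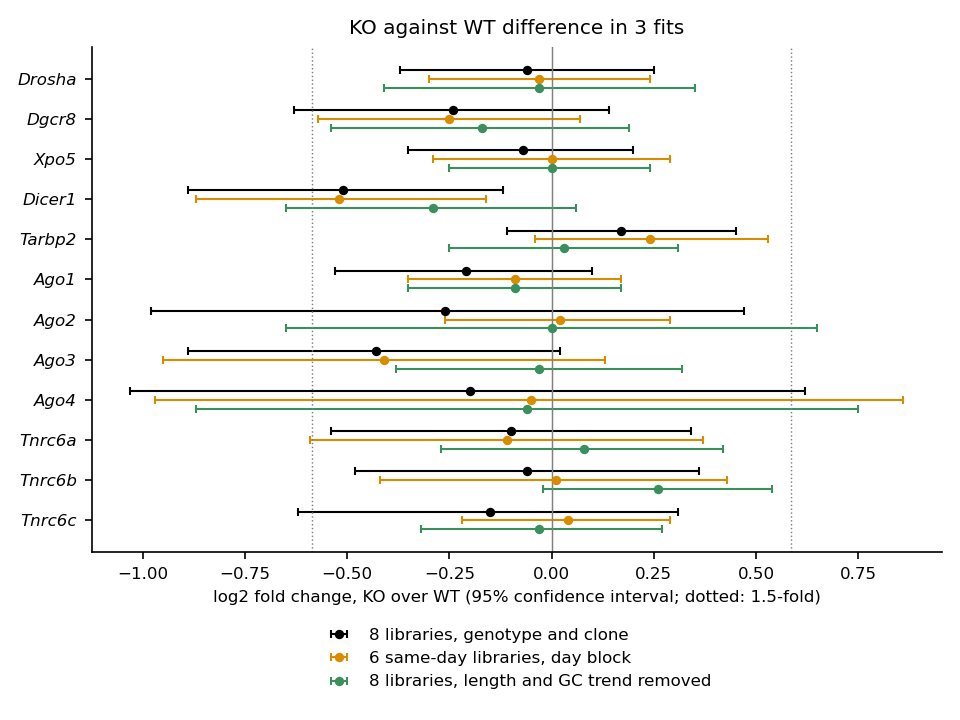
Log2 fold change of KO over WT with its 95% confidence interval for the 10 members and the other GW182 genes, in 3 fits: all 8 libraries (black), the 6 same-day libraries with a day block (orange), and all 8 with the length and GC trend removed (green). Dotted lines mark 1.5-fold. The Dicer1 interval leaves out 0 in the first pair of fits but not in the third, and the Ago2 interval narrows from -0.98 to 0.47 to -0.26 to 0.29 with the day block.

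Ago2, the Argonaute with slicer activity, did not differ detectably. The gene lies on chromosome 15 (73095844 to 73184935, minus strand). It read 1102, 1933, 2893 and 2232 in the KO libraries and 2427, 2079, 2800 and 2069 in the WT libraries, each by replicate. KO replicate 1 held the lowest value and KO replicate 3 the highest of all 8 libraries, so the WT range lay inside the KO range. This gave a log2 fold change of -0.26 ± 0.31 (SE) with a limma p of 0.432 and an adjusted p of 0.799, and its interval of 0.506- to 1.38-fold still holds a fall of 1.5-fold.

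Leaving out 1 library at a time moved the log2 fold change of Ago2 between -0.44, without KO replicate 3 (limma p of 0.152), and -0.02. Without KO replicate 1, which has no WT library of its day, the log2 fold change of Ago2 was -0.02, with an interval of 0.708- to 1.38-fold. Over the 6 same-day libraries it was 0.02, with an interval of 0.683- to 1.5-fold without a block and of 0.836- to 1.22-fold with the day as a replicate block (SE 0.10). The day differences were -0.11, 0.05 and 0.11. Against its same-day WT library, Ago2 thus lay within 0.11 on the log2 scale on every day, which is under the difference between WT replicates 3 and 4.

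KO replicate 1 was also the lowest of the 8 libraries for Ago1, Ago4, Xpo5, Tnrc6b and Tnrc6c. Across all libraries Ago2 ran with Ago1 (Pearson r = 0.81) and with Xpo5 (r = 0.78), and the transcripts most like it among 11089 with a mean of at least 50 were Med13l (r = 0.992), Sema6b (r = 0.992) and Fbxo31 (r = 0.990), all over 8 libraries and without a test. Like Ago2, these 3 were lowest in KO replicate 1, where Sema6b read 17.5 against 47.2 to 94.7 in the other libraries.

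Ago1 (chromosome 4, 126435012 to 126468583, minus strand) read 1405, 1716, 1848 and 1663 in KO and 2098, 1932, 1906 and 1730 in WT. KO replicates 1, 2 and 4 lay under the WT range and KO replicate 3 inside it. Its log2 fold change was -0.21 ± 0.13 (SE), with an interval of 0.693- to 1.07-fold and a limma p of 0.156. Before the clone correction that the authors applied, the KO libraries ran up to 1761 and the WT libraries started at 1816, so whether the groups overlap depends on that step.

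Ago3 (chromosome 4, 126331704 to 126429556, minus strand) was the other member whose groups did not overlap. It read 147, 216, 134 and 207 in KO and 216, 248, 253 and 225 in WT, where the highest KO and the lowest WT value differed only in the decimals. The mean was 176 ± 41.0 in KO and 235 ± 18.2 in WT (SD, n = 4 each). Its log2 fold change was -0.43 ± 0.19 (SE), with an interval of 0.540- to 1.01-fold, a limma p of 0.0586 and an exact two-sided permutation p of 0.0286, the smallest possible. With voom on recovered reads its p was 0.0453, at an adjusted p of 0.516.

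The Ago3 difference moved more than that of Dicer1 when the length and GC trend was removed. Before the clone correction the groups overlapped, but not within either clone. KO then read 107, 175 and 94.3 against WT at 208 and 213 in clone E3. In clone 1 it read 247 against 256 and 265. With the correction undone the log2 fold change was -0.54, with a limma p of 0.0602. In the deposited values the day 4 pair differed by -0.91 and the other pairs by -0.20 and -0.12. Removing the length and GC trend brought the log2 fold change to -0.03, with a limma p of 0.866. Its annotated transcript is the longest of the members, 15.6 kb with 41.8% GC, and the lowest read number behind a value was 102.

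Ago4 (chromosome 4, 126489541 to 126533472, minus strand) was near the detection limit, with 9 to 91 reads per library. It read 15.2, 16.5, 22.8 and 29.1 in KO and 26.1, 17.4, 41.8 and 16.8 in WT, and the groups overlapped. The log2 fold change of -0.20 ± 0.35 (SE) had an interval of 0.488- to 1.54-fold, which still holds a change of 1.5-fold in either direction. The genes Ago3, Ago1 and Ago4 stand in a row on chromosome 4, with gaps of 5.46 kb and 20.96 kb between them, and the mRNAs at the ends of this row were the least abundant Argonautes per kb.

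**Figure D3:**
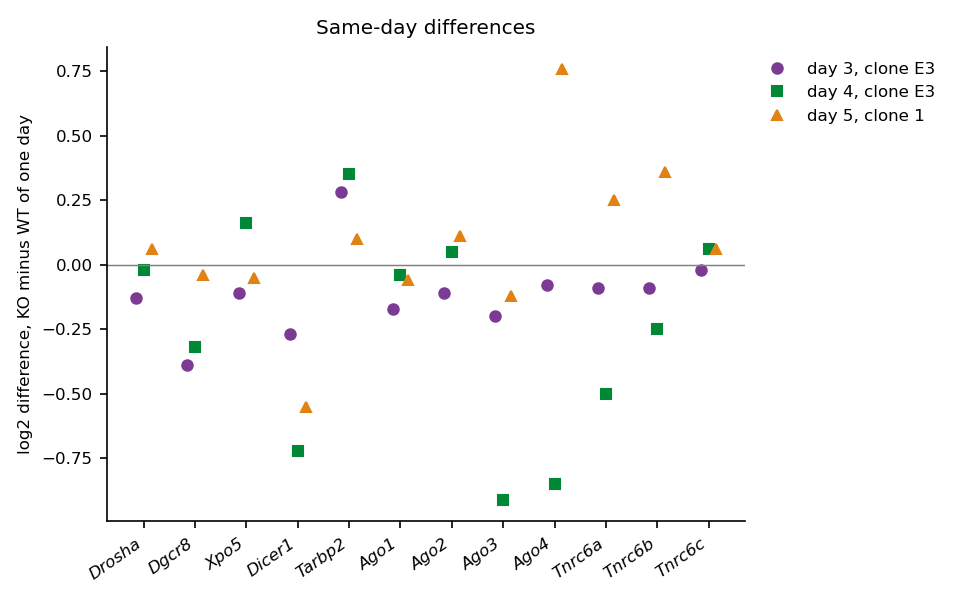
Log2 difference of the KO minus the WT library of the same day, for day 3 and day 4 (clone E3) and day 5 (clone 1). Dicer1, Dgcr8, Ago1 and Ago3 lie below 0 on all 3 days and Tarbp2 above 0 on all 3, while Ago2 stays between -0.11 and 0.11 and Ago4 runs from -0.85 to 0.76.

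The makeup of the Argonaute pool was compared as shares, in which the scaling of a library cancels out. Per kb of transcript, the 4 Argonautes summed to 392 ± 79.2 in KO and 454 ± 39.7 in WT (SD, n = 4 each, exact two-sided permutation p = 0.171). Ago1 made up 59.5% ± 6.28 of this sum in KO and 58.5% ± 3.21 in WT, and Ago2 36.7% ± 6.78 and 37.3% ± 2.96. Ago3 held 2.96% ± 0.780 and 3.34% ± 0.350, and Ago4 0.818% ± 0.193 and 0.844% ± 0.324. None of the 4 shares differed beyond the spread between libraries, with exact two-sided permutation p-values from 0.486 to 0.886, all 0.886 after Benjamini-Hochberg adjustment over the 4. On each of the 3 shared days the KO library had the lower share of Ago1 and of Ago3 and the higher share of Ago2, which for Ago1 and Ago2 is opposite to the group means, and 3 pairs allow no exact p below 0.25. Single libraries stood further apart than the genotypes, the share of Ago2 running from 27.9% in KO replicate 1 to 43.9% in KO replicate 3.

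Which Argonaute mRNA leads depends on the length used. Per kb of transcript Ago1 led with 59.0% ± 4.65 over all 8 libraries (SD) and Ago2 had 37.0% ± 4.85. Per kb of coding sequence Ago2 led with 51.3% ± 5.34 and Ago1 had 43.2% ± 4.77. The annotated 3′UTR of Ago2 is 11064 bases long and that of Ago1 4491 bases, while their coding sequences have 2580 and 2571 bases. The table gives 1 value per gene, so the order of these mRNAs was not settled by it. On either scale Ago3 and Ago4 were the third and the fourth.

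The GW182 genes, whose proteins bring deadenylases to the target mRNA, did not differ detectably in level or in proportion. Tnrc6a (chromosome 7, 123123885 to 123195296, plus strand) read 1892, 2390, 1550 and 2414 in KO and 2006, 2547, 2193 and 2029 in WT. KO replicate 3 held its lowest and KO replicate 4 the second highest value, so the groups overlapped, with a log2 fold change of -0.10 ± 0.19 (SE) and an interval of 0.685- to 1.26-fold. Its relatives lay at -0.06 (Tnrc6b, limma adjusted p = 0.918) and -0.15 (Tnrc6c, limma adjusted p = 0.81). Per kb, Tnrc6a gave 49.8% ± 6.96 of the 3 in KO and 49.4% ± 2.88 in WT, Tnrc6b 13.7% ± 0.804 and 13.3% ± 0.751, and Tnrc6c 36.5% ± 7.59 and 37.3% ± 3.52. The exact two-sided permutation p-values of these shares ran from 0.486 to 0.971, and each was 0.971 after adjustment over the 3.

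**Figure D4:**
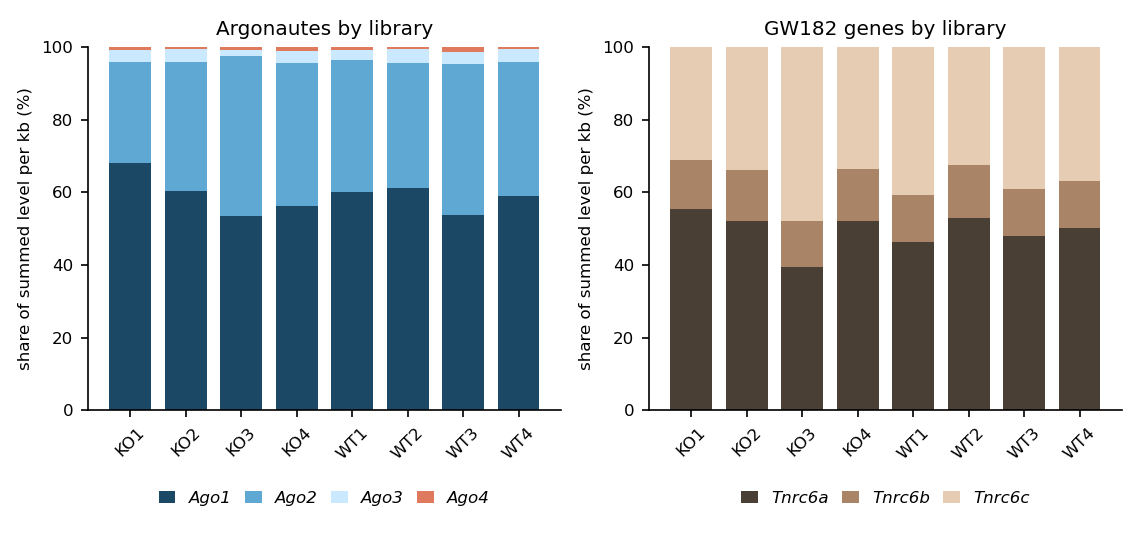
Share of each gene in the summed level per kb of transcript, in percent, for the Argonautes (left) and the GW182 genes (right) in KO replicates 1 to 4 and WT replicates 1 to 4. Ago1 and Ago2 fill most of each left bar, and the largest departures are in KO replicate 1 (Ago1 68.0%) and KO replicate 3 (Tnrc6c 47.7%).

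The members spanned a wide range of levels per kb of transcript, given as the mean ± SD over 8 libraries. Drosha (759 ± 71.5) and Xpo5 (653 ± 45.6) were highest, at the 89.3rd and 87.3rd percentile of the 13456 transcripts with a length. They were followed by Tarbp2 (366 ± 35.3), Dgcr8 (283 ± 45.1), Tnrc6a (260 ± 39.9), Ago1 (247 ± 28.9), Dicer1 (238 ± 50.5) and Ago2 (159 ± 40.6). Ago3 (13.2 ± 2.77) and Ago4 (3.55 ± 1.39) came last, at the 14.2nd and 2.66th percentile, the median transcript being at 118.

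Neighbours in this order often overlapped in their ranges over the libraries. The ranges of Xpo5 and Tarbp2, of Ago2 and Ago3, and of Ago3 and Ago4 were apart, and those of all other neighbours overlapped. Compared within each library, Drosha was above Xpo5, Tarbp2 above Dgcr8 and Dicer1 above Ago2 in 7 of 8. Tnrc6a was above Ago1 in 6 of 8 libraries, Dgcr8 above Tnrc6a in 5 of 8 and Ago1 above Dicer1 in 4 of 8. Per kb of coding sequence Xpo5 (918 ± 64.2) came first and Ago2 (849 ± 217) second, so the place of Ago2, like its share, moved with the length of its annotated 3′UTR. Ago3 and Ago4 stayed the last on both scales.

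Some members varied together across the libraries. Drosha and Dgcr8 had the highest correlation of all 45 pairs (Pearson r = 0.88), followed by Ago1 with Xpo5 (0.87) and by Dicer1 with Dgcr8 (0.81). Ago2 and Dicer1 had an r of -0.09. The transcripts most like Dicer1 were Gm608 (r = 0.991), Abi2 (r = 0.989) and Iqgap2 (r = 0.985). All are Pearson correlations of log2 values over 8 libraries linked by clone and day and unequal in depth, and none was tested. Both genotypes enter each r, so a difference between them does too.

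Seed matches were looked up on the mRNA strand of each member's annotated 3′UTR, because let-7 targets Trim71 and the Argonautes are themselves known as miRNA targets. The let-7 match CTACCTC occurred 4 times in Trim71, 3 times in Ago2 and once each in Ago3 and Tarbp2, and not in the 3′UTRs of the other 7 members, Dicer1 included. Of all 12917 3′UTRs 10.1% held this match, and of those as long as that of Ago2 (within a factor of 0.8 to 1.25) 20 of 40 did. The Trim71 and Ago2 matches are shown with the match in capitals, 5′ to 3′ on the mRNA strand (the minus strand, GRCm38).
Trim71, chr9:114512469-114512490: ttgcctaagtcCTACCTCagct
Trim71, chr9:114512373-114512394: ataatttctatCTACCTCaact
Trim71, chr9:114509044-114509065: gtatggattttCTACCTCaatt
Trim71, chr9:114509018-114509039: caaaaagttgtCTACCTCacgt
Ago2, chr15:73101721-73101742: atgcataaaagCTACCTCtgac
Ago2, chr15:73100037-73100058: tggcctctgtcCTACCTCcagg
Ago2, chr15:73097979-73098000: acaatgtggatCTACCTCagtt
All 4 Trim71 matches and 1 of the Ago2 matches, the third, are followed by an A. The log2 fold change of the Ago2 mRNA was -0.26 over all 8 libraries (0.506- to 1.38-fold), and its same-day differences were within 0.11, as described above. Whether these matches act on it was not tested.

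The miR-294 match AGCACTT occurred among the members only in Ago3, 3 times (76.9% of the 26 3′UTRs of like length and 16.6% of all held it). The miR-17 match GCACTTT, which shares GCACTT with it, occurred 3 times in Ago3 and once each in Ago1, Ago2 and Tnrc6a (13.8% of all 3′UTRs). Dicer1 held none of the 3 matches in its 3851 bases, where 21.7%, 37.0% and 33.0% of the 1202 3′UTRs of like length held the let-7, miR-294 and miR-17 match. The Ago3 matches to miR-294 are given on the minus strand of GRCm38.
Ago3, chr4:126341688-126341709: caggcggtgtgAGCACTTggag
Ago3, chr4:126338308-126338329: actttaattgcAGCACTTaaga
Ago3, chr4:126335512-126335533: caaatgttaagAGCACTTattg
A match is a string of letters and says nothing of binding.

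The rest of the pathway was read from lists of 70 further transcripts. At an unadjusted p under 0.05 (limma), 1 of 70 was higher and 4 were lower in KO, 7.14% in all against 9.09% of all transcripts, and 0 passed an adjusted p of 0.05. Their median log2 fold change was -0.10, and 48 of 70 were below 0. Groups were apart with KO lower in 8 of 70 and with KO higher in 1 of 70, against 4.62% and 5.48% of all transcripts.

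The transcript called higher was Zc3h12a, which encodes Regnase-1, an RNase that degrades inflammatory mRNAs and has also been described to cut miRNA precursors. It read 190, 218, 256 and 255 in KO and 95.5, 117, 136 and 106 in WT, so the KO values were all above the WT values. Its log2 fold change was 0.99 ± 0.17 (SE), 1.52- to 2.60-fold by its interval, with a limma p of 0.000499 and an adjusted p of 0.294. It was 1.02 with the day block, at a p of 0.000923, and 0.88 with the length and GC trend removed, at a p of 0.000202. In the same list of 12 tailing and turnover genes Xrn1, the cytoplasmic 5′ to 3′ exonuclease, was lower in KO (361 ± 101 against 542 ± 52.6, SD, n = 4 each; log2 fold change -0.61 ± 0.23 (SE), limma p of 0.0332, adjusted p = 0.516). The call was lost with the day block (-0.57, at a p of 0.0892) and with the length and GC trend removed (-0.28, at a p of 0.0779). The p for Xrn1 was also above 0.05 in 4 of the 8 fits with 1 library left out, up to 0.099 without WT replicate 2.

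Among the silencing partners, Lsm14b, a component of cytoplasmic mRNA granules, was lower without overlap (1208 ± 86.6 against 1495 ± 147, log2 fold change -0.31, limma p of 0.0409, adjusted p = 0.533). The p for Lsm14b was 0.0538 with the day block, 0.0619 with median centring and 0.0811 with quantile normalization, and it was above 0.05 in 7 of the 8 fits with 1 library left out, up to 0.222 without KO replicate 4. Lsm14b was the only one of 16 called, 12 of the 16 lying below 0. The 11 chaperone and strand removal genes had a median of 0.00 and no call, Dnaja2 (-0.22, limma adjusted p = 0.706) and the nuclease gene Snd1 (0.19, limma adjusted p = 0.663) having the smallest p in each direction. With the day block both were called (-0.34 at a limma p of 0.0204, and 0.27 at a limma p of 0.0394), in a fit that called 19.2% of all transcripts. Of the 6 Argonaute modifiers and import genes none was called, the extremes being Ankrd52 (-0.44, limma adjusted p = 0.622), a subunit of the phosphatase that resets Argonautes, and P4ha1 (0.35, limma adjusted p = 0.69), a prolyl hydroxylase.

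Of the 7 long transcripts that host miRNAs and were present, 2 were called lower in KO at an unadjusted limma p under 0.05, against 4.46% of all transcripts. They were Meg3 and Rian, noncoding RNAs of a single imprinted region, Dlk1-Dio3. The others present, Mirg among them, were not called. Meg3 read 71.1, 85.6, 146 and 81.3 in KO and 284, 189, 217 and 151 in WT, with a log2 fold change of -1.16 ± 0.29 (SE), a limma p of 0.00499 and an adjusted p of 0.445. Rian read 91.0, 75.8, 83.5 and 56.6 in KO and 220, 136, 140 and 95.6 in WT, with a log2 fold change of -0.94 ± 0.28 (SE), a limma p of 0.0109 and an adjusted p of 0.452. The genotypes did not overlap in either gene, where 4.62% of all transcripts were apart with KO lower. WT replicate 1, the only library of day 1, was highest in both genes. For Meg3 the limma p stayed under 0.05 in every fit with 1 library left out, with a highest p of 0.0322, and with the length and GC trend removed (-0.90, at a p of 0.0141). For Rian it did not with that trend removed (-0.45, at a p of 0.321) or without KO replicate 4 (a p of 0.0786). The host of the miR-22 hairpin, Mir22hg, had the smallest p of those above 0 (0.32, limma adjusted p = 0.723), and in the PIWI clade, the germline relatives of the Argonautes, Piwil1 (-0.48, limma adjusted p = 0.71) and Piwil2 (0.10, limma adjusted p = 0.853) were not called.

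**Figure D5:**
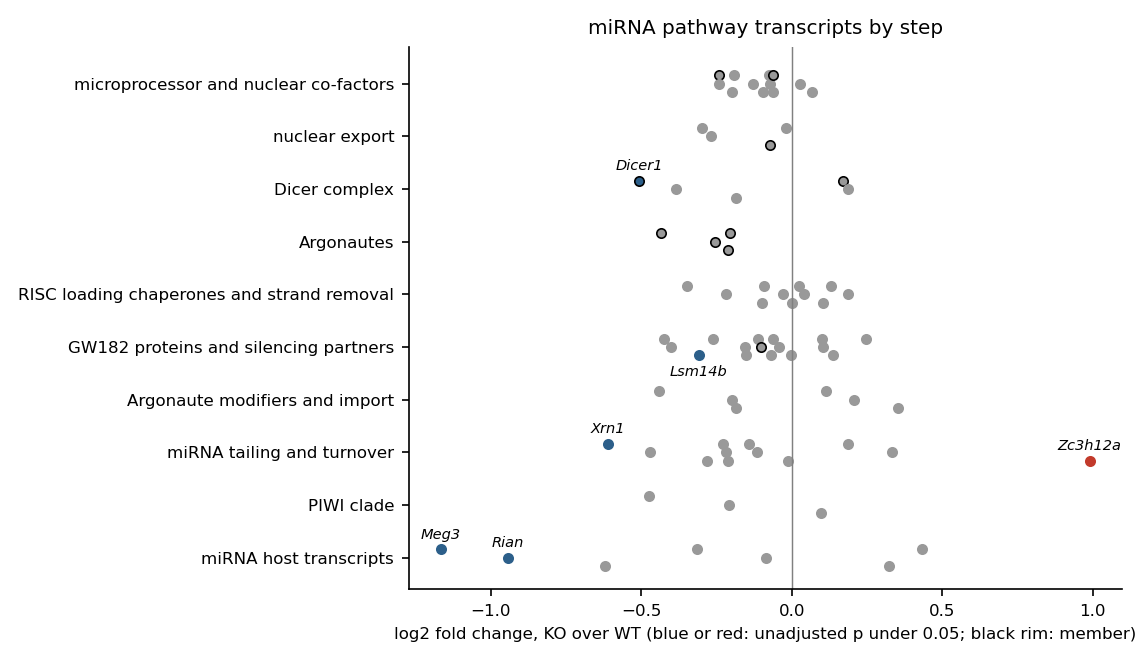
Log2 fold change of KO over WT for the 80 pathway transcripts present, 1 row of points for each step. Colour marks an unadjusted limma p under 0.05, red above 0 and blue below 0, grey is not called, and a black rim marks the 10 members. Of the 80 points 74 lie within 0.5 of 0, Zc3h12a stands apart on the right and Meg3, Rian and Xrn1 on the left.

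The clones did not differ detectably in the response of any member. For the interaction of genotype and clone 0 of 10 members had an adjusted limma p under 0.05, where 0.0885% of all transcripts did, and 0 of 10 had an unadjusted p under 0.05, where 2.59% did. The lowest unadjusted p among the members was 0.171, for Tnrc6a. Clone 1 has a single KO library, so only large differences between clones could be seen.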

How the data were processed

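Poly(A) RNA of 8 mES cell libraries (TruSeq v2, not strand-marked) was sequenced. Per the authors' methods and the labels, reads were base called with CASAVA 1.8, aligned to mm10 with TopHat2 and Bowtie2 2.2.1, counted per RefSeq transcript in Partek 6.6, normalized with DESeq2 and corrected for batch, after which values under 1 were set to 1 and transcripts with no group mean of at least 10 were dropped. What the authors deposited is thus a normalized signal per transcript rather than raw counts, and depth has to be recovered from it. An effect of clone was found to have been subtracted on the linear scale (what remained was at most 0.000316% of a transcript's mean). When this was undone, under the condition that each value is a whole number of reads times a factor of its library, it gave a single solution for 13494 of 13558 transcripts (99.53%), all 10 members included. On simulated data 99.77% of 13305 transcripts were recovered, with 0 wrong solutions. Recovered totals ran from 7061825 to 26229534 reads over the deposited transcripts only.

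KO and WT were compared with limma 3.58.1 in R 4.3.3 over all transcripts. The model held genotype and clone, the values were log2(value + 1), and p-values had Benjamini-Hochberg adjustment. On simulated data of 13494 transcripts of which 200 had a log2 change of 1, the fit called 163 of them at a dispersion of 0.02 and 6 at 0.1. Single values were compared by exact two-sided permutation over 70 assignments, with a smallest p of 0.0286. Lengths, 3′UTRs and coordinates came from GENCODE M21 (GRCm38, the longest RefSeq-matched transcript), with 13456 transcripts matched by symbol. Other steps ran in Python 3.11.15 (scipy 1.17.1, numpy 2.4.6, pandas 2.3.3), and plots were drawn with matplotlib 3.10.9.

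The members, lists and alternatives were chosen with earlier results of these data known. Named were Trim71, the members, Tnrc6b and Tnrc6c, list transcripts past the criterion or apart with an unadjusted p under 0.05, the smallest p of each list and direction, and the 3 transcripts most correlated with Ago2 and with Dicer1. The day label pairs 6 libraries. With the clone correction undone, deviations from the group means of same-day libraries correlated at 0.54, 0.63 and 0.52 across transcripts, against a median of -0.18 over 13 other pairs, but libraries of 1 day also share a clone. Without undoing it, day 5 gave -0.23. Alternatives changed the pseudocount, filters, scaling, clone and day terms, the length and GC trend, and the libraries used. No per-sample column was left unused.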

Additional observations from a re-analysis of the deposited data

Results flagged for a closer look

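Of 72 groups of 4 values checked, 5 held a library whose gap to the others exceeded Dixon's 95% limit of 0.829 of the range, where chance gives 3.6. Dgcr8 in KO replicate 3 was 911.6 against 1169 to 1211 in the other KO libraries. Xrn1 in WT replicate 4 was 463.9 against 558 to 574.5 in the other WT libraries. The share of Ago3 in the Argonaute sum was 1.806% in KO replicate 3 against 3.234% to 3.509%. The share of Tnrc6c in the GW182 sum was 47.73% in that same library against 30.98% to 33.71%, and the share of Tnrc6b in WT replicate 2 was 14.43% against 12.88% to 12.98%. KO replicate 3 thus accounts for 3 of the 5.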

How the results depend on the processing

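Over 24 alternatives to the fit of all transcripts, 0 of 10 members passed an adjusted p of 0.05 in any (lowest 0.116, Dicer1 in voom with the day block), and Trim71 kept its direction and an unadjusted p under 0.05 in each. The members called at an unadjusted p under 0.05 were 1 in the main fit, 2 with no clone term, with quantile normalization and with voom on recovered reads (each time Dicer1 and Ago3), 3 with voom and the replicate block by day (Dicer1, Dgcr8 and Tarbp2), 0 with the length and GC trend removed, and 0 to 2 in the fits that each omit 1 library. With the fold criterion added, that last count was 0 to 1, the 1 being Ago3 without KO replicate 4. The share of all transcripts at an unadjusted p under 0.05 also moved between these settings. From 9.09% in the main fit it was larger with no clone term and reached 23.7% with voom and the replicate block by day. With quantile normalization and with voom alone it stayed close to that of the main fit. The added member calls were not tested against these shares. Dicer1 had an unadjusted p under 0.05 in 22 of 25 settings and was below 0 in all 25, the exceptions being the length and GC trend and the fits without KO replicate 4 or WT replicate 2. The cause was not tested.

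The share of all transcripts at an unadjusted p under 0.05 was 9.09% over 8 libraries, and over the 6 same-day libraries 6.69% without and 19.2% with the replicate block by day. Leaving out KO replicate 4, which is clone 1's single KO library, gave 3.26%. On the deposited values the block changed no call on a member. With the length and GC trend removed it took the limma p of Dicer1 from 0.0895 to 0.035, and in voom it took that of Ago3 from 0.0453 to 0.066 and added the calls of Dgcr8 and Tarbp2. The order of the members' differences moved too, Ago3 being further from 0 than Dicer1 in voom (-0.54 against -0.51), with the clone correction undone (the same values) and without KO replicate 4 (-0.62 against -0.43). The sign turned only for values that were not called. With the block Ago2 was at 0.02, Tnrc6b at 0.01 and Tnrc6c at 0.04, and in the 6 libraries without the block at the same 0.02, 0.01 and 0.04. With the clone correction undone and the block, chosen after seeing the data, Ago2 was at 0.01 and Tnrc6c at 0.04. With voom and the block Ago2 was at 0.01, Xpo5 at 0.00 and Tnrc6c at 0.04. With the length and GC trend removed Tnrc6a was at 0.08, Tnrc6b at 0.26 and Khsrp at -0.00. With that trend removed and the block only 4 of 10 members were below 0, against 8 of 10 with either step alone. In this combined fit Ago2 was at 0.22, Ago3 at 0.03, Ago4 at 0.10, Xpo5 at 0.05, Tnrc6a at 0.07, Tnrc6b at 0.29 and Tnrc6c at 0.09.

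Leaving out 1 library gave -0.57 to 0.23 for Ago4, -0.15 to 0.03 for Drosha, -0.30 to 0.02 for Tnrc6a, -0.27 to 0.06 for Tnrc6b, -0.03 to 0.16 for Khsrp and -0.02 to 0.15 for Piwil2. The differences in share, KO minus WT in percentage points, ran from -1.83 to 2.97 for Ago1, -2.98 to 2.35 for Ago2, -0.560 to 0.00765 for Ago3, -0.115 to 0.129 for Ago4, -1.47 to 3.8 for Tnrc6a and -4.57 to 1.01 for Tnrc6c. Paired by day they were -1.34 for Ago1, 2.03 for Ago2, -0.653 for Ago3, -2.50 for Tnrc6a and 2.15 for Tnrc6c, where 3 pairs allow no exact p below 0.25, and with the clone correction undone -0.448 for Tnrc6a and 0.171 for Tnrc6c. The interaction with clone could not be fitted without KO replicate 4. Ago4 had only 9 to 91 reads per library, and intervals cover the spread between libraries only.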
